A study of Mus musculus with 6 samples.

Results

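The genes described here are 10 that mark or build the contractile cells of the vessel wall, chosen by symbol from the 32285 genes measured in each library. Of these, 6 are contractile or cytoskeletal genes (*Acta2*, *Tagln*, *Myh11*, *Myl9*, *Cnn1* and *Des*) and 4 mark pericytes (*Rgs5*, *Rgs4*, *Kcnj8* and *Abcc9*). All 10 had a row in every library. Droplet scRNA-seq, in which a random tag called a UMI marks every mRNA copy that is caught, was run on tdTomato+ cells sorted from mouse back skin, in 6 libraries that form 3 groups of 2 (S1 and S2). WT telogen mice (resting phase of the hair cycle) were taken at postnatal day 20 and WT anagen mice (growth phase) at day 32; both carried tdTomato, Cdh5-CreERT2 and Krt14-H2BGFP on a C57BL/6;CD1 background. Alk1 KO telogen mice were taken at day 25 and carried Alk1 flox/flox, tdTomato and Cdh5-CreERT2 on C57BL/6, with no Krt14-H2BGFP named for them. Every mouse, controls included, had received tamoxifen at 200 μg/g on day 17. In the KO, the loss of Alk1 therefore cannot be told apart from the 5 days of age, the strain or the missing reporter. The paper also describes the KO cells as an earlier data set of its authors. Separate handling of the KO libraries can therefore not be told apart from the loss of Alk1 either. Cdh5-CreERT2 acts in cells that use the promoter of *Cdh5*, the VE-cadherin gene of endothelial cells (ECs). All cells here were sorted for tdTomato, so a deletion in the pericyte-like or perineurial-like cells of the KO is possible too, and it was not measured.

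Pericytes are the mural cells that share a basement membrane with capillary ECs, while vascular smooth muscle cells wrap arterioles, venules and larger vessels. Smooth muscle cells contract through actin and a smooth muscle myosin, and most pericytes hold far less of this machinery. *Rgs5*, a regulator that speeds the switching-off of G proteins, and the ATP-sensitive potassium (KATP) channel of *Kcnj8* and *Abcc9* are known as pericyte markers in many tissues.

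Many smooth muscle genes are driven by serum response factor, which binds a DNA element called the CArG box, CC and GG around A or T bases. The promoters of 2 contractile members and of 1 KATP member are shown. The first carry such elements under the rule given next, and the other does not. The sequences are from RefSeq (GRCm38.p6, the patch release of mm10). They cover the 250 bases before the annotated start, 5′ to 3′ on the gene's strand. Capitals mark a CArG box that kept the CC and GG and in which at most 1 of the 6 inner bases was not A or T. *Acta2*, α-smooth muscle actin, has its window at chr19:34255374-34255623 on the minus strand, *Myl9*, a regulatory light chain of myosin, at chr2:156775214-156775463 on the plus strand, and *Kcnj8*, the pore of the KATP channel, at chr6:142571615-142571864 on the minus strand.
Acta2: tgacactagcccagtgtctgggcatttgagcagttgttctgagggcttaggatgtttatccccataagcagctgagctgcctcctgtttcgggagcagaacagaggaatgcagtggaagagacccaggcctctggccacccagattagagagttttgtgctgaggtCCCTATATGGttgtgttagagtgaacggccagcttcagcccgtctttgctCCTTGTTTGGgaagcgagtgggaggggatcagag
Myl9: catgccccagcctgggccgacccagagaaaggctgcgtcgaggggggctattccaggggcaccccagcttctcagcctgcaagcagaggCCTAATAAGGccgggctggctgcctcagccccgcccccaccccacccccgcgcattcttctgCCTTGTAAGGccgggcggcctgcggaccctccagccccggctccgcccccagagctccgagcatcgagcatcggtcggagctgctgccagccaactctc
Kcnj8: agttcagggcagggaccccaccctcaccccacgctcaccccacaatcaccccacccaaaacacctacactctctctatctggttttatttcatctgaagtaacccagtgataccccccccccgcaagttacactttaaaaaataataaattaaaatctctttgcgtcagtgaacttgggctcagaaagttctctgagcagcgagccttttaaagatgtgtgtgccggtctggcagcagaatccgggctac

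The *Acta2* window held 2 boxes that each differ from the consensus at 1 base, 84 and 34 bases before the start. The *Myl9* window held 1 exact box 161 bases before the start and 1 with a single other base at 99. For both genes, and for *Cnn1*, the window reaches past the outermost annotated start into the gene span. That of *Abcc9* lies wholly inside its gene span, so the sequence before its outermost start was not searched. No such box was found in the windows of *Kcnj8*, *Abcc9*, *Cnn1*, *Des*, *Rgs5* and *Rgs4*, and *Tagln* and *Myh11* were not matched. Runs in which a base of the outer CC or GG differs were not counted, and the *Kcnj8* window holds such a run. Of all 32851 promoter windows, 1.47% held an exact box and 8.59% a box with at most 1 other inner base. A match is a run of letters and not a measured binding site. Along the genome, *Rgs5* (chr1:169655501-169695813) and *Rgs4* (chr1:169741477-169747642) lie 45.66 kb apart, and *Kcnj8* (chr6:142564837-142571614) and *Abcc9* (chr6:142587862-142702766) lie 16.25 kb apart, each pair with 0 annotated genes between them.

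Kept were the cells in which 200 to 5000 genes and under 10% of mitochondrial UMIs were read, 20941 in all and 1713 to 5106 per library. The libraries held 10615358 to 43317677 UMIs, with the fewest in the KO. A library shared 10 to 21 of its kept barcodes with the others. Cell types were called from other markers, and the 10 genes were not used for clustering or naming. The pericyte-like class held 488 cells and showed 14 of the 16 markers used to name it. Those 16 are markers of pericytes or vascular smooth muscle cells, so the class can hold both. The remaining cells were 8634 blood endothelial, 4026 lymphatic endothelial, 3407 immune-like, 2649 perineurial-like, 799 fibroblast-like and 128 Schwann-like cells and 810 in clusters left unnamed. *Acvrl1*, the gene of Alk1, was read at 209 and 181 CPM (UMIs of the gene per 1000000 UMIs) in blood endothelial cells of WT telogen S1 and S2, at 156 and 168 CPM in anagen and at 163 and 152 CPM in the KO. These 3′ tags can lie outside the deleted exons, so they check nothing about the deletion.

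By library, 114 and 154 cells were pericyte-like in WT telogen, 82 and 43 in anagen and 60 and 35 in the KO. This was 3.44% ± 0.221 of kept cells in telogen, 1.37% ± 0.753 in anagen and 2.65% ± 1.21 in the KO (mean ± SD, n = 2 libraries each). The share was 2.06 percentage points lower in anagen than in telogen, with both anagen libraries under both telogen libraries. KO S1 lay between the telogen libraries, and KO S2 lay under them. Exact two-sided permutation tests gave p = 0.333 for anagen and p = 0.667 for the KO, and 0.333 is the smallest value that 2 against 2 libraries can give. A share in a sort does not tell how many such cells the skin held. In sums over cells, fewer cells of a kind and less RNA per cell cannot be told apart.

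The 10 genes were read mostly in pericyte-like cells, with 53367 of their UMIs there and 15214 in the 8634 blood endothelial cells. Levels are given in CPM of the UMIs summed per library and cell type. *Rgs5* was at 3823 and 3886 CPM in pericyte-like cells of WT telogen, at 3212 and 4280 CPM in anagen and at 2582 and 3869 CPM in the KO. In blood endothelial cells it was at 59.2 and 56.5, 42.5 and 9.17, and 10.2 and 16.4 CPM in the same order, and in perineurial-like cells it was at 0 to 20.5 CPM. No library of any other named class came near the pericyte-like range, in which the groups overlapped. *Rgs4*, its neighbour and a regulator of the same family, stood at 169 and 206 CPM in pericyte-like cells of telogen, at 224 and 257 in anagen and at 217 and 127 in the KO, against 0.274 to 3.42 CPM in blood endothelial cells.

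*Acta2* was at 1829 to 8066 CPM in pericyte-like cells and at 2.38 to 47.5 CPM in blood endothelial cells. *Myh11*, the smooth muscle myosin heavy chain, was at 329 to 2151 CPM and 0.794 to 2.28 CPM. *Cnn1*, the thin-filament protein calponin, was the sparsest member, with 118 UMIs in pericyte-like cells and 1 UMI in all blood endothelial cells. *Des*, the intermediate filament desmin, was at 272 to 445 CPM in pericyte-like cells and at 1.32 to 7.005 CPM in blood endothelial cells. The KATP pair was at 18.9 to 205 CPM (*Kcnj8*) and 53.5 to 267 CPM (*Abcc9*, its regulatory subunit) in pericyte-like cells, and at most 1.37 and 3.25 CPM in blood endothelial cells. Many pericyte-like cells also held a UMI of *Pecam1* or *Cdh5*. Those without numbered 17 of 114 and 53 of 154 in telogen, 14 of 82 and 33 of 43 in anagen and 55 of 60 and 24 of 35 in the KO. In them the mean over the 6 libraries was 7776 CPM of *Acta2* (3903 in all pericyte-like cells), 5226 of *Tagln* (2630.2), 80.3 of *Kcnj8* (133) and 98.4 of *Abcc9* (168).

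*Tagln*, which encodes the actin-binding protein transgelin, was the member with the widest spread over classes. It was at 1107 to 5000.4 CPM in pericyte-like cells, and next came blood endothelial cells at 143 to 357 CPM and Schwann-like cells at 0 to 414 CPM, whose ranges overlapped. Perineurial-like cells followed at 0 to 133 CPM. *Myl9* ran from 628 to 2809 CPM in pericyte-like cells to 139 to 199 CPM in perineurial-like cells, and its range in Schwann-like cells, 0 to 138 CPM, reached almost as high. That 138 CPM rests on 5 UMIs. Fibroblast-like cells spanned 6.15 to 221 CPM of *Myl9* and 0 to 565 CPM of *Acta2*. Below pericyte-like cells, neighbouring classes in the order of *Tagln* or *Myl9* did not separate beyond their spread over libraries, while every perineurial-like sum exceeded the 1.32 to 30.3 CPM of *Myl9* in blood endothelial cells.

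**Figure D1:**
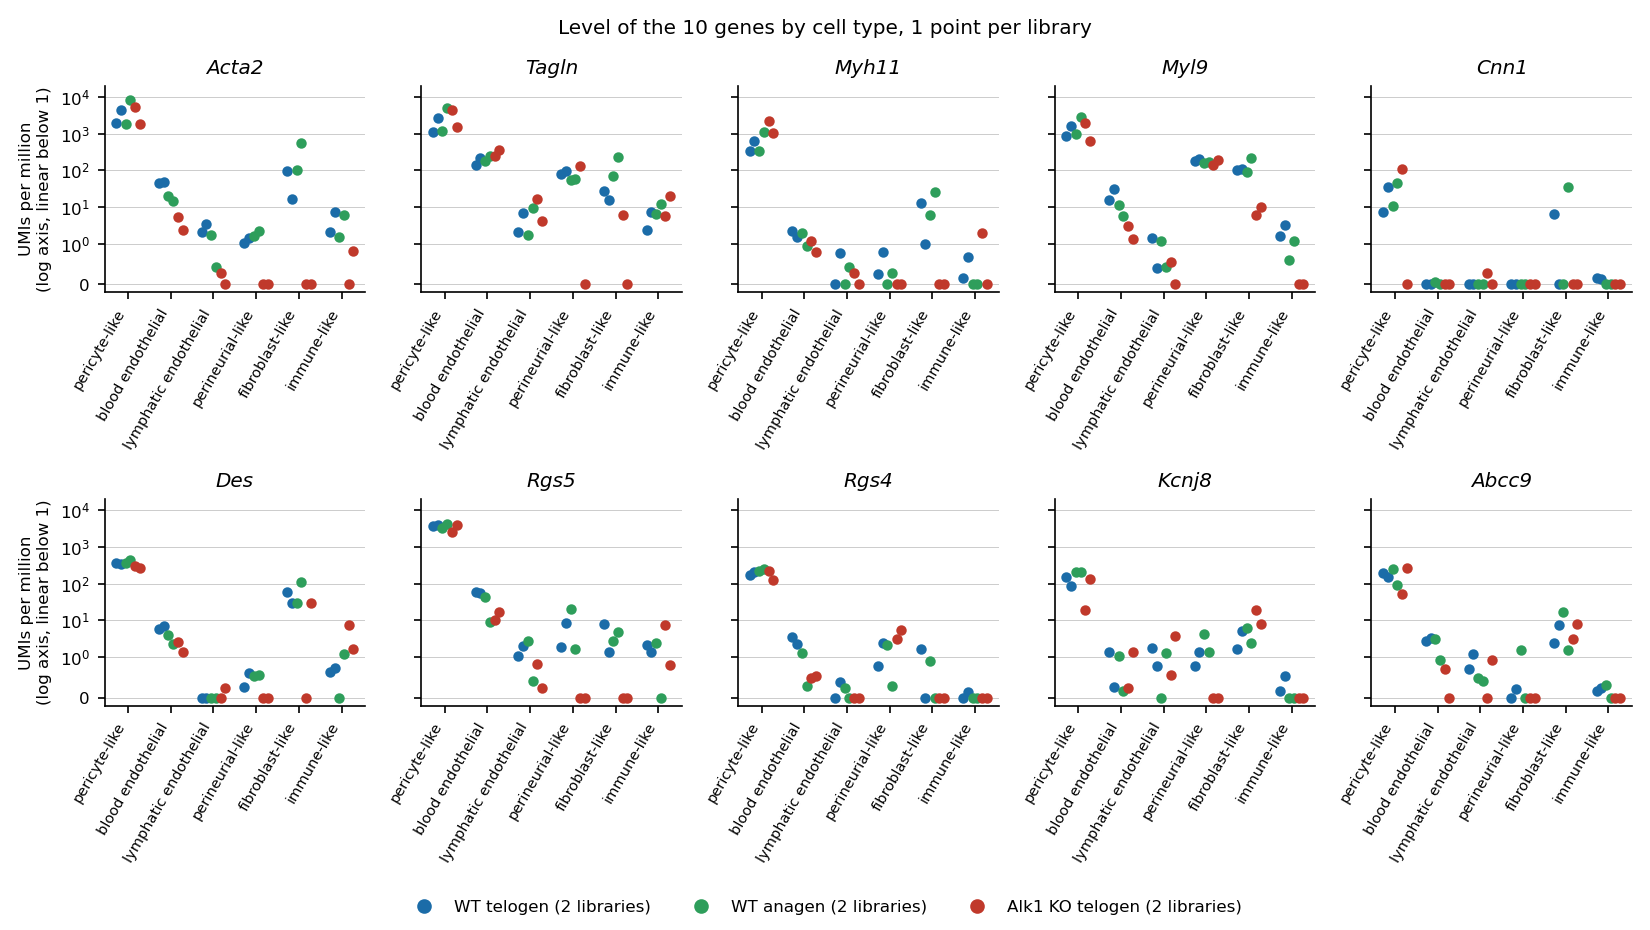
Level of each of the 10 genes in 6 cell types, in CPM of summed UMIs on an axis that is linear near 0 and logarithmic above; each point is 1 library, in the colour of its group. Pericyte-like cells stand highest in each panel, apart from *Cnn1* in KO S2, which is at 0, and *Tagln* in blood endothelial cells keeps to 143 to 357 CPM in all 6 libraries.

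Detection was compared at an equal depth of 1500 UMIs per cell, with immune-like cells taken as the baseline for free RNA. Cells were pooled over libraries of unlike make-up. WT telogen gave 916 and 1939 of the 3407 immune-like cells, and anagen 2572 and 3316 of the 8634 blood endothelial cells. The baseline is thus mostly one of telogen, and immune-like *Tagln* ran from 2.30 CPM in telogen S1 to 19.4 CPM in KO S2. *Tagln* was found in 50.5% of 481 pericyte-like cells (exact 95% binomial interval 46.0% to 55.1%), in 13.1% of 8003 blood endothelial cells (12.4% to 13.8%), in 7.12% of 2527 perineurial-like cells and in 0.468% of 3204 immune-like cells (0.262% to 0.771%). *Rgs5* was found in 82.7%, 2.96%, 0.356% and 0.406% of the same cells, *Acta2* in 59.7%, 1.54%, 0.198% and 0.2497%, and *Myl9* in 68.4%, 1.1996%, 22.4% and 0.2497%. Perineurial-like cells thus held *Myl9* and *Tagln* far above the baseline, while their pooled shares of *Rgs5* and *Acta2* were near it. By library, perineurial-like *Rgs5* was at 8.59 CPM in telogen S2 and 20.5 CPM in anagen S1, against 1.34 and 2.41 CPM in immune-like cells. In telogen S1 and anagen S2 it was at 1.80 and 1.68 CPM, against 2.06 and 0 CPM. The other 6 members were in 3.12% (*Cnn1*) to 42.2% (*Myh11*) of pericyte-like cells and in at most 0.487% of blood endothelial cells. *Cnn1* was found in 0 of 8003 blood endothelial cells, which allows a share of up to 0.0461%. Median depths before thinning were 8155 UMIs in pericyte-like, 5416 in blood endothelial, 5177 in perineurial-like and 11595 in immune-like cells. Unthinned, *Tagln* was in 68.6%, 23.7%, 18.0% and 2.38% of them. The intervals cover counting error alone, since cells of a library are not replicates.

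Within pericyte-like cells, *Acta2*, *Tagln* and *Myl9* differed widely between the 2 libraries of every group, more than *Rgs5*, *Rgs4* and *Des* did. *Acta2* was at 1969 and 4304 CPM in WT telogen, 1881 and 8066 CPM in anagen, and 5368 and 1829 CPM in the KO. *Tagln* was at 1107 and 2632, 1151 and 5000.4, and 4352 and 1538 CPM. *Myl9* was at 881 and 1632, 988 and 2809, and 2013 and 628 CPM. For these 3 genes telogen S2, anagen S2 and KO S1 were the high libraries, and every group overlapped the others. The 6 contractile members summed to 4657 and 9599.8 CPM in telogen, 4725 and 17462 CPM in anagen and 14299 and 5313 CPM in the KO. The 4 pericyte markers summed to 4333.6 and 4334 CPM, 3889 and 4832 CPM, and 2871 and 4399 CPM. *Rgs5* made up most of each of these sums. *Kcnj8* was at 151 and 87.6, 205 and 201, and 18.9 and 136 CPM in the same order. *Abcc9* was at 190 and 155, 248 and 94.2, and 53.5 and 267 CPM, so the KATP pair was not steady between libraries. *Des* kept to a narrow range, at 363 and 349.6 CPM in telogen, 361 and 445 CPM in anagen and 305 and 272 CPM in the KO. Markers of other cells moved too. In pericyte-like cells the summed level of 12 endothelial markers was 2667 to 3417 CPM in telogen, 1458 to 3324 CPM in anagen and 670 to 1941 CPM in the KO, with all 12 detected in each library, and the 6 erythroid genes were at 1783 to 9058, 3.25 to 7.31 and 18.8 to 34.6 CPM. Their part in the results was not tested.

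**Figure D2:**
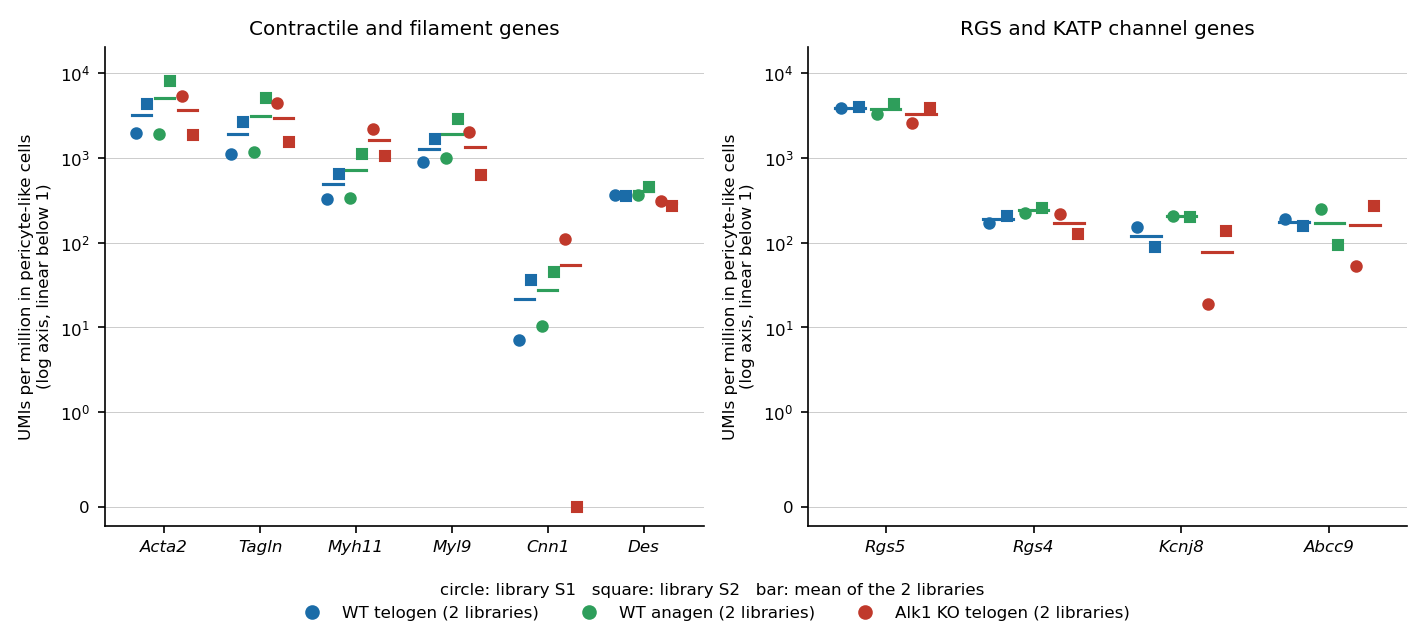
Level of each gene in pericyte-like cells by group, in CPM; circles are S1, squares are S2 and bars are group means of 2 libraries. The symbols of a group lie far apart for *Acta2*, *Tagln*, *Myh11* and *Myl9* and close together for *Des* and, in telogen, *Rgs5*.

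The pericyte-like cells fell into 7 sub-clusters when grouped again without the 10 genes, and all 7 held cells of all 6 libraries. Sub-cluster 1 (128 cells), led by *Pln* and *Rergl*, had the highest contractile levels, with *Acta2* at 9808 CPM, *Tagln* at 6368 CPM, *Myh11* at 1745 CPM and *Cnn1* at 94.4 CPM. Its *Kcnj8* and *Abcc9* were at 12.1 and 19.4 CPM. Sub-cluster 2 (96 cells), led by *Tslp*, was alike in order, with *Acta2* at 4121 CPM and *Kcnj8* at 14.2 CPM. Sub-cluster 6 (28 cells), led by *Art3*, *Plxdc1* and *Vtn*, had the highest levels of the pericyte markers. There *Kcnj8* was at 809 CPM, *Abcc9* at 1011 CPM and *Rgs5* at 8718 CPM, with *Acta2* at 238 CPM, *Tagln* at 86.7 CPM and *Cnn1* at 0. In the others *Rgs5* was at 2443 to 4374 CPM. Sub-clusters 1 and 2 lay inside that range (3377 and 4063 CPM), so *Rgs5* was not low where the contractile genes were high. *Pln*, phospholamban, is a regulator of the calcium pump of muscle cells, and *Vtn*, vitronectin, is a known pericyte product. In the other 4 sub-clusters *Acta2* was at 172 to 2002 CPM and *Kcnj8* at 162 to 284 CPM, and both were highest in sub-cluster 7. Sub-cluster 5 (47 cells, led by *Thrsp* and *Cd300lg*) had less *Acta2* and *Myh11* (172 and 50.8 CPM) than sub-cluster 6 (238 and 137 CPM). *Des* was at 276 to 444 CPM and *Rgs4* at 93.4 to 332 CPM over all 7. The range of *Des* was narrow, but it was highest in sub-clusters 1, 2 and 7, which also had the most *Acta2*. *Rgs4* was highest in sub-cluster 6 and did not follow the contractile order. *Myl9* was at 3248 CPM in sub-cluster 1 and 1365 CPM in sub-cluster 6.

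The summed endothelial markers were at 506 CPM in sub-cluster 1, at 2217 CPM in sub-cluster 6 and at up to 4238 CPM in sub-cluster 3 (84 cells, led by *Ptprr*, *Fbln5* and *Sox17*), against 7268 to 7438 CPM in blood endothelial cells of WT telogen. Sub-clusters 3 to 5 thus carried endothelial RNA at a large part of the endothelial level, and its part in their values was not tested. These values are descriptions, since clusters of the same cells are no test. For values by library the sub-clusters were pooled into 2 parts after the values had been seen, so a gap between the parts is no test. In sub-clusters 1 and 2 together *Kcnj8* was at 0 to 32.6 CPM, and in sub-clusters 3 to 7 at 76.6 to 569 CPM. The edges of this gap rest on 4 UMIs in KO S2 (32.6 CPM) and 5 UMIs in KO S1 (76.6 CPM).

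Sub-clusters 1 and 2 made up 24.6% and 46.1% of the pericyte-like cells of WT telogen, 30.5% and 74.4% in anagen and 80.0% and 57.1% in the KO. The 3 libraries with high *Acta2*, *Tagln* and *Myl9* were each the one of their group with the larger share. Within sub-clusters 1 and 2, *Acta2* was at 3993 and 7829 CPM in telogen, 6041 and 10822 CPM in anagen and 6505 and 2861 CPM in the KO, so that a spread between libraries of a group remained. In sub-clusters 3 to 7 it was at 1057 and 1215, 389.8 and 2195, and 966 and 431 CPM.

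**Figure D3:**
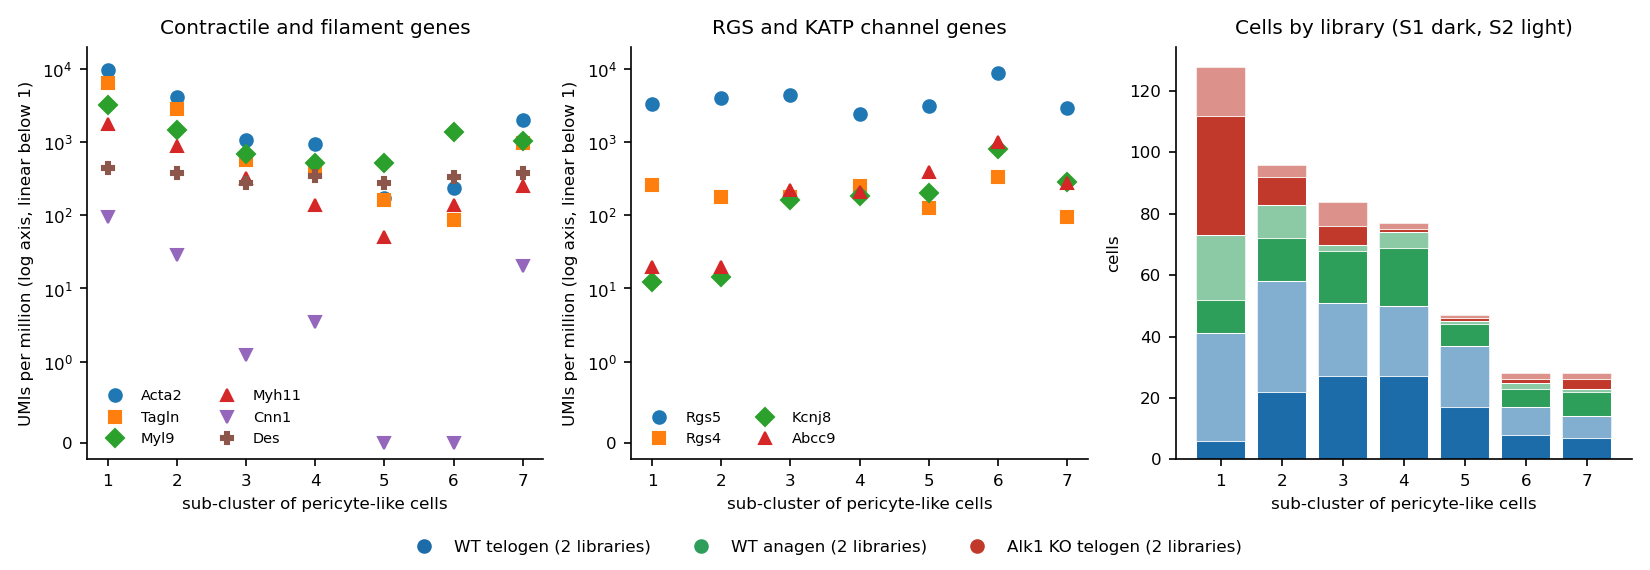
The 7 sub-clusters of pericyte-like cells: levels of the 6 contractile genes (left) and of the 4 pericyte markers (middle) in CPM on a logarithmic axis, and the number of cells from each library (right, S1 dark and S2 light). The *Acta2* and *Kcnj8* values run in opposite order between sub-cluster 1 (9808 and 12.1 CPM) and sub-cluster 6 (238 and 809 CPM).

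The same opposition was seen cell by cell, in 481 pericyte-like cells thinned to 1500 UMIs. The rank correlation of *Acta2* was 0.80 with *Tagln* (0.71 to 0.84 over the 6 libraries), 0.62 with *Myl9* and 0.56 with *Myh11*. It was -0.36 with *Kcnj8* (-0.46 to -0.27), -0.36 with *Abcc9* (-0.38 to -0.23) and -0.14 with *Rgs5* (-0.53 to 0.20). *Kcnj8* and *Abcc9* correlated at 0.29, with a range of -0.04 to 0.60. Cells of a library share its handling and depth, and these values are descriptions. The 145 cells with a UMI of *Kcnj8* or *Abcc9* held on average 1.297 UMIs of *Acta2* and 7.17 of *Rgs5*, and 16.6% of them had a UMI of *Myh11*. The 336 cells with neither held 7.54 and 5.26 UMIs, and 53.3% had *Myh11*. The *Myh11* shares varied by library, from 0% against 48.1% in anagen S1 to 63.6% of 11 against 71.0% of 31 cells in anagen S2 and 75.0% of 4 against 74.1% of 54 cells in KO S1. Mean *Acta2* was lower in the cells with a KATP transcript in 6 of 6 libraries, from 0.915 against 3.88 UMIs in telogen S1 to 5.45 against 17.5 in anagen S2.

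For anagen against telogen in WT pericyte-like cells, 0 of the 10 members passed edgeR's quasi-likelihood test (adjusted p under 0.05 and more than 1.3-fold). Among all 8700 genes tested 0 passed as well (0%), 510 had an unadjusted p under 0.05, and DESeq2 called 4. The estimates were 0.72 ± 0.64 for *Acta2*, 0.77 ± 0.66 for *Tagln*, 0.58 ± 0.55 for *Myh11* and 0.64 ± 0.50 for *Myl9* (log2 fold change ± SE, edgeR), with adjusted p values of 0.829 to 0.869. *Rgs5* came to -0.01 ± 0.20 and *Des* to 0.20 ± 0.21, the narrowest estimates beside *Rgs4* (0.38 ± 0.22). *Kcnj8* had the lowest unadjusted p of the 10, 0.0369, with 0.79 ± 0.31 and an adjusted p of 0.823 (edgeR). Its values of 151 and 87.6 CPM in telogen and 205 and 201 CPM in anagen did not overlap. The members' median was 0.48, against 0.01 over all genes. These values rest on single libraries. Without anagen S1, *Acta2* came to 1.41, *Tagln* to 1.47, *Myh11* to 1.22 and *Myl9* to 1.21. Without anagen S2 the 4 turned to -0.72, -0.68, -0.53 and -0.33.

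For Alk1 KO against WT telogen in pericyte-like cells, again 0 of 10 members were called, where 456 of 7965 genes (5.73%) were. *Myh11* came nearest. It was at 329 and 646 CPM in telogen and at 2151 and 1046 CPM in the KO, without overlap, with a log2 fold change of 1.65 ± 0.45 (edgeR adjusted p = 0.0704, unadjusted 0.00664). Without the cells that held *Pecam1* or *Cdh5*, *Acta2* came to -0.98 (adjusted p = 0.0586, edgeR), against 0.14 ± 0.55 with them, and *Myh11* to 0.84 (0.0706). DESeq2 called *Myh11* (1.65, adjusted p = 0.0359), and so did edgeR on sub-clusters 3 to 7 (1.47, adjusted p = 0.0273), where it was at 158 and 211 CPM in telogen and 613 and 585 CPM in the KO from 12 and 15 cells. In sub-clusters 1 and 2 it was at 709 and 1142 CPM and at 2548 and 1386 CPM and was not called (adjusted p = 0.116, edgeR). Without telogen S1 it was 1.21 (adjusted p = 0.391, edgeR).

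The other 9 ran from -0.86 ± 0.65 for *Kcnj8* to 1.43 ± 1.03 for *Cnn1*, with edgeR adjusted p values of 0.379 to 0.988. *Kcnj8* was at 18.9 and 136 CPM in the KO, under and between its telogen values of 151 and 87.6 CPM, and *Cnn1* at 110.1 and 0 CPM. The KO libraries differed enough from each other to move the estimates. Without KO S2, *Tagln* came to 1.16, *Myh11* to 2.08, *Cnn1* to 2.26, *Rgs5* to -0.65, *Kcnj8* to -2.72 and *Abcc9* to -1.76. Without KO S1, *Myl9* came to -1.18, against 0.02 ± 0.54 with both. Without telogen S2, *Myh11* came to 2.14 and *Cnn1* to 2.88. The members' median was -0.08, against 0.00 over all genes.

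In blood endothelial cells the members were at a small part of their pericyte-like level, 0.0975% to 2.36% for *Acta2* and 0.214% to 1.55% for *Rgs5*, but 4.98% to 23.2% for *Tagln*. The 10 genes summed to 263 to 381 CPM there, and *Tagln* gave 51.2% and 58.8% of this sum in WT telogen, 67.6% and 87.9% in anagen and 91.1% and 93.7% in the KO. In pericyte-like cells *Tagln* gave 12.3% to 25.3% and *Rgs5* 15.0% to 42.5%. The share of *Tagln* was thus higher in blood endothelial than in pericyte-like cells in all 6 libraries. How much of these UMIs came from pericytes was not tested.

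**Figure D4:**
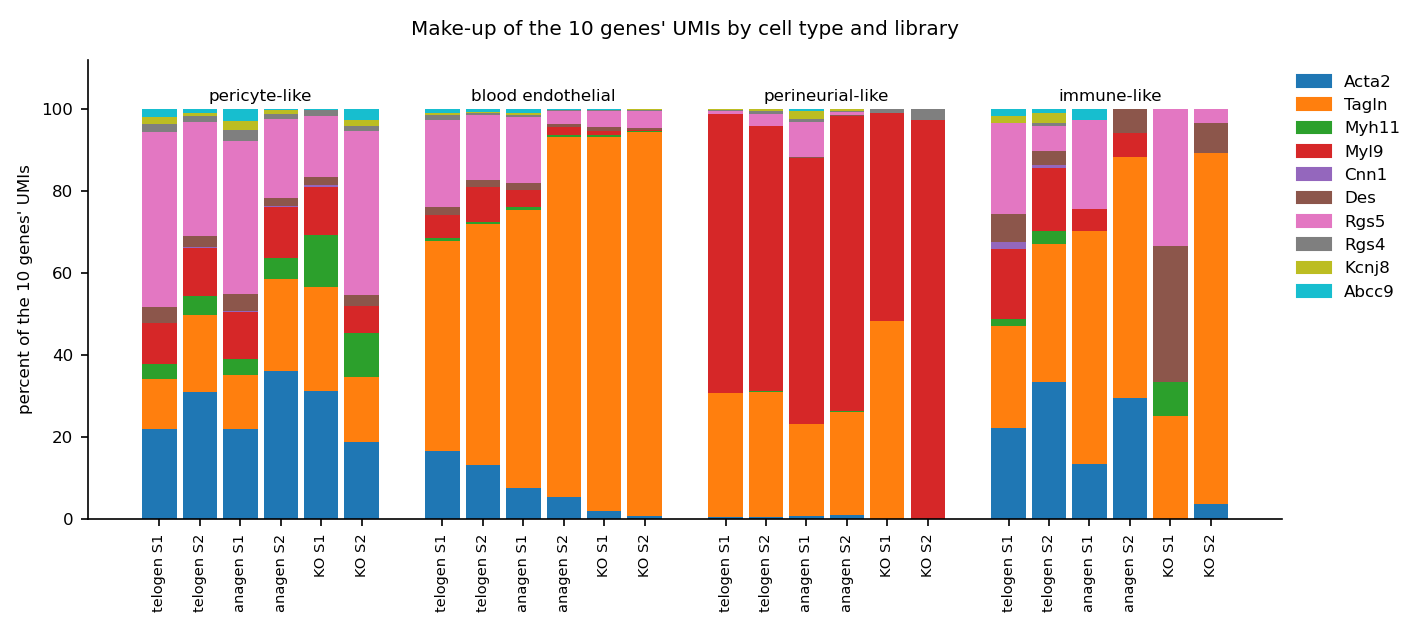
Make-up of the UMIs of the 10 genes in pericyte-like, blood endothelial, perineurial-like and immune-like cells, in percent of their sum, with 1 stacked bar per library. *Tagln* takes 51.2% to 93.7% of the bar in blood endothelial cells against 12.3% to 25.3% in pericyte-like cells, and *Myl9* leads in perineurial-like cells.

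The transcripts were also spread differently over the endothelial cells. The 1% of cells richest in *Acta2* held 63.7% to 100% of its UMIs in a library, and for *Tagln* they held 24.8% to 36.8%. Blood endothelial cells with a UMI of 6 pericyte markers (*Pdgfrb*, *Notch3*, *Higd1b*, *Cox4i2*, *Ndufa4l2* or *Vtn*) were 2.01% to 9.06% of the class. They held 9.30% to 51.7% of the UMIs of *Rgs5* and 4.21% to 40.9% of those of *Acta2*, but 0.593% to 13.7% of those of *Tagln*. Without them *Tagln* was still at 138 and 226 CPM in telogen, 180 and 249 CPM in anagen and 250.1 and 363 CPM in the KO. The level of *Tagln* in blood endothelial cells was thus about the same without the cells that carried a pericyte marker. *Rgs5* without them was at 36.2 and 34.2, 22.1 and 6.57, and 9.69 and 13.3 CPM. *Acta2* without them was at 32.1 and 49.3, 19.8 and 12.1, and 3.23 and 1.62 CPM. In telogen S2 (47.5 CPM with them) and anagen S1 (20.0 CPM with them) *Acta2* was thus about the same too.

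For anagen against telogen in blood endothelial cells, 9 members passed the filter on low counts and 0 were called, as were 0 of 12809 genes (0%), with 2016 at an unadjusted p under 0.05 and 198 called by DESeq2. *Acta2* was at 46.4 and 47.5 CPM in telogen and at 20.0 and 15.0 CPM in anagen, without overlap, with a log2 fold change of -1.29 ± 0.17 (adjusted p = 0.0748, edgeR; called by DESeq2, adjusted p = 6.11e-05). *Rgs5* was lower in both anagen libraries too, at -1.04 ± 0.60, but anagen S1 (42.5 CPM) lay closer to telogen than to anagen S2 (9.17 CPM). *Tagln* was at 143 and 212 CPM and at 178 and 249 CPM, with overlap, at 0.41 ± 0.23. *Myl9* was at -1.30 ± 0.41 and *Des* at -0.90 ± 0.36. The median over the 9 members tested was -0.90. Sparse members can pass the filter through the higher group, so it is not read against the 0.00 over all genes. Without anagen S1, *Tagln* came to 0.64, and without anagen S2, *Acta2* came to -1.12 and *Myl9* to -0.89.

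For Alk1 KO against WT telogen in blood endothelial cells, all 6 members that passed the filter were called, where 3770 of 11295 genes (33.4%) were, 15.3% higher and 18.1% lower. The 6 had passed partly through the higher group, so their count is not evidence about the members. *Acta2* fell from 46.4 and 47.5 CPM to 5.23 and 2.38 CPM (204, 190, 22 and 9 UMIs), a log2 fold change of -3.65 ± 0.27 (adjusted p = 2.84e-05, edgeR). In telogen, 7 of 640 and 7 of 671 cells held 63.7% and 66.3% of these UMIs. In the KO, 7 of 690 and 8 of 745 cells held 72.7% and 100%. The part of these few cells in the fall was not tested. *Rgs5* fell from 59.2 and 56.5 to 10.2 and 16.4 CPM (-2.19 ± 0.20, adjusted p = 8.28e-05) and *Myl9* from 15.5 and 30.3 to 3.09 and 1.32 CPM (-3.37 ± 0.45, adjusted p = 0.000499). *Tagln* went the other way. It was at 143 and 212 CPM in telogen and at 244 and 357 CPM in the KO, without overlap (0.70 ± 0.21, adjusted p = 0.0260, edgeR). The call of *Tagln* was lost without telogen S1 (0.45, adjusted p = 0.193) and with all 6 libraries in the fit (0.70, adjusted p = 0.0666), while *Acta2*, *Rgs5* and *Myl9* kept theirs in every alternative that tested the whole class.

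*Des* was at 5.69 and 7.005 CPM in telogen and at 2.62 and 1.32 CPM in the KO (-1.70 ± 0.43, adjusted p = 0.0137, edgeR), but its sign turned with a 5% mitochondrial limit (1.07, adjusted p = 0.334) and without likely doublets (0.40, adjusted p = 0.679). *Abcc9* came to 3 UMIs in the KO against 25 in telogen, a ratio of 0.126 with a 95% counting interval of 0.0244 to 0.413 (edgeR adjusted p = 0.0147, lost in 6 alternatives). Of the members that did not pass the filter, *Rgs4* had 4 UMIs against 24 (ratio 0.175, 0.0442 to 0.510), *Myh11* 8 against 16 (0.525, 0.195 to 1.301) and *Kcnj8* 6 against 7 (0.901, 0.2501 to 3.13), and *Cnn1* had 0 in both. The median over the 6 members tested was -2.57. As they had passed the filter partly through the higher group, it is not read against the 0.02 over all genes. Lists of other cells moved as well. In blood endothelial cells the 16 markers of pericytes or vascular smooth muscle summed to 280 to 307 CPM in telogen and 234 to 243 CPM in the KO. At least 12 of the 16 were detected. In the same order, the 10 fibroblast markers summed to 124 to 178 and 24.3 to 24.7 CPM. The 15 immune markers summed to 103.1 to 156 and 11.9 to 16.1 CPM. Their part in the results was not tested.

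The rise of *Tagln* was not shared by all blood endothelial clusters, of which there were 4. They were led by *Gpihbp1* (2789 cells), which holds lipoprotein lipase on capillary endothelium, by *Ackr1* (1477 cells), a chemokine-binding receptor of venules, by *Ly6c1* (1926 cells), and by *Cytl1* with *Gkn3*, *Sema3g* and *Gja4* (2442 cells), the last a connexin of arterial endothelium. The split into clusters was chosen after the values had been seen. *Tagln* was at 52.6 and 54.9 CPM in WT telogen, 75.0 and 197 CPM in anagen and 190.1 and 303 CPM in the KO in the *Gpihbp1* cluster. In the *Ackr1* cluster, the highest of the 4 in every library, it was at 378 and 467, 572 and 482, and 579 and 1171 CPM. In the *Ly6c1* cluster it was at 71.1 and 105, 158 and 207, and 54.8 and 31.2 CPM, and in the *Cytl1* cluster at 28.2 and 145, 88.9 and 79.1, and 21.2 and 18.0 CPM. Both KO libraries thus lay above both telogen libraries in the *Gpihbp1* and *Ackr1* clusters, and under both in the *Ly6c1* and *Cytl1* clusters.

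The edgeR fits within clusters gave *Tagln* 2.05 ± 0.22 in the *Gpihbp1* cluster (adjusted p = 3.79e-06), 1.03 ± 0.24 in the *Ackr1* cluster (0.00658), -0.998 ± 0.33 in the *Ly6c1* cluster (0.0469) and -2.11 ± 0.57 in the *Cytl1* cluster (0.0209). Of all genes tested in them 34.9%, 22.4%, 17.8% and 18.5% were called. The *Gpihbp1* value ran from 1.69 to 2.33 when each library was left out and lost its call without KO S1 (adjusted p = 0.0670). The *Ackr1* call was lost without telogen S1 (0.0878) or KO S2 (0.0590), the *Ly6c1* call in 3 of 4 such fits, and the *Cytl1* value came to -0.54 (0.475) without telogen S2. The difference between the responses was tested as an interaction. It was 4.07 ± 0.45 between the *Gpihbp1* and *Cytl1* clusters (log2, edgeR adjusted p = 7.08e-07, 860 of 9319 genes or 9.23% called), 2.99 ± 0.45 between *Ackr1* and *Cytl1* (0.000206), 2.94 ± 0.41 between *Gpihbp1* and *Ly6c1* (0.00188) and 1.95 ± 0.37 between *Ackr1* and *Ly6c1* (0.00496). Between *Gpihbp1* and *Ackr1* it was 1.04 ± 0.22 (0.00435), and between *Ly6c1* and *Cytl1* 0.89 ± 0.45 (0.332), which was not called.

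*Acta2* in WT was highest in the *Cytl1* cluster, at 83.8 and 131 CPM in telogen and 69.7 and 44.6 CPM in anagen, and was at 2.76 and 3.28 CPM there in the KO (-5.09 ± 0.39, adjusted p = 2.96e-06, edgeR). In the *Gpihbp1* cluster it was at 15.6 and 15.0 CPM in telogen and 7.15 and 1.92 CPM in the KO (-1.89 ± 0.55, 0.0144, lost with any library left out), and in the *Ackr1* cluster at 61.0 and 15.0 CPM and 7.49 and 2.36 CPM (-2.81 ± 0.63, 0.00488). Without telogen S1 the *Ackr1* value was -1.46 and no longer called (0.295). The fall in the *Cytl1* cluster was larger than in the *Gpihbp1* cluster by 3.21 ± 0.82 (adjusted p = 0.0119, edgeR), the only 1 of 6 pairs of clusters called. The difference of the *Cytl1* cluster was 2.22 from the *Ackr1* cluster (0.318) and 4.61 from the *Ly6c1* cluster (0.0575). *Rgs5* instead was highest in the *Gpihbp1* cluster, at 174 and 132 CPM in telogen and 24.5 and 51.9 CPM in the KO (-2.14 ± 0.26, adjusted p = 1.38e-05, edgeR). This call was lost without KO S1 (-1.72, 0.0778). Telogen *Acta2* and *Rgs5* thus lay highest in different endothelial clusters.

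**Figure D5:**
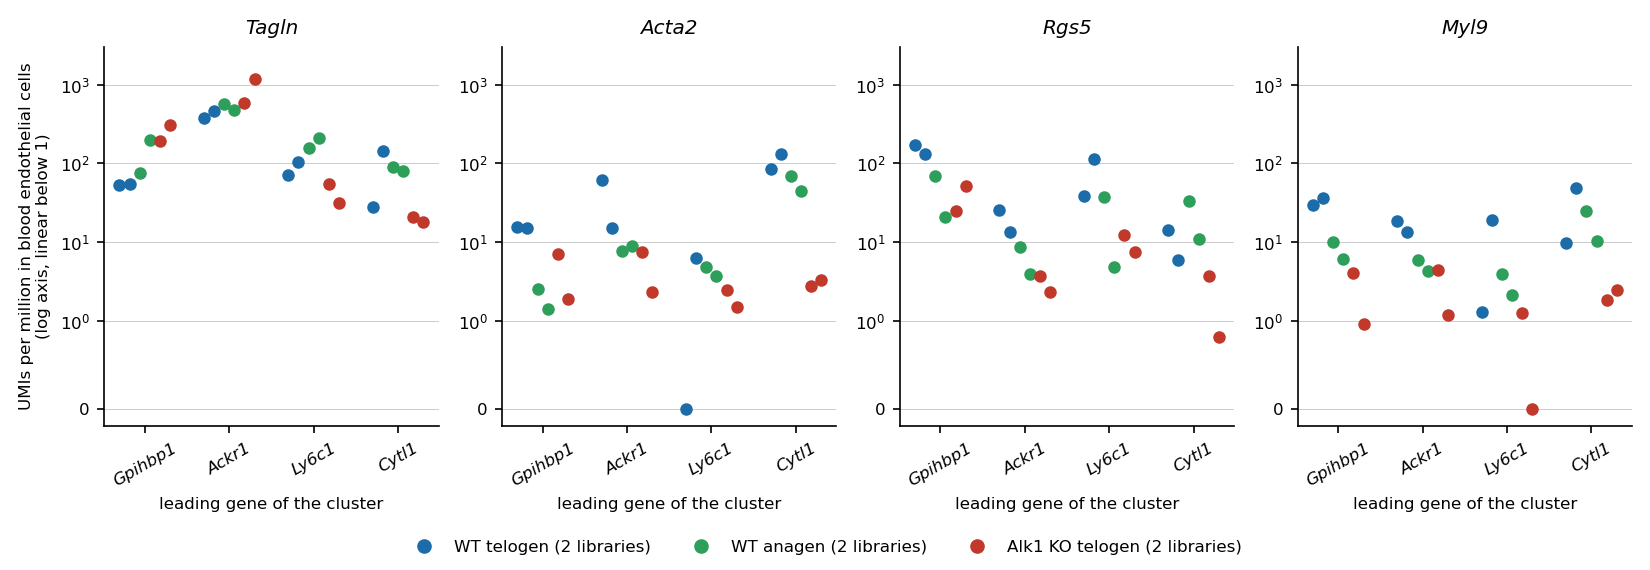
Levels of *Tagln*, *Acta2*, *Rgs5* and *Myl9* in the 4 blood endothelial clusters, named by a leading gene, in CPM; each point is 1 library, in the colour of its group. The KO points of *Tagln* lie above telogen in the *Gpihbp1* and *Ackr1* clusters and under it in the *Ly6c1* and *Cytl1* clusters, and those of *Acta2* are at 7.49 CPM or less in all 4.

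The change in the KO was compared between pericyte-like and blood endothelial cells by an interaction test with the library as a block, which 4 of 10 members and 363 of 11753 genes (3.09%) passed. *Myh11*, *Cnn1*, *Rgs4* and *Kcnj8* had not passed the low-count filter in blood endothelial cells and entered through their pericyte-like sums, so the count is not read against that share. The pericyte-like response exceeded the endothelial by 3.65 ± 0.35 for *Acta2* (log2, adjusted p = 4.09e-06, edgeR), by 3.15 ± 0.36 for *Myl9* (2.45e-05), by 1.63 ± 0.24 for *Rgs5* (0.000396) and by 2.45 ± 0.61 for *Myh11* (0.0318), whose endothelial change rests on 8 against 16 UMIs and was not tested by itself. The *Myh11* call was lost with DESeq2 (2.63, 0.112) and without telogen S1 (1.66, 0.775), KO S1 (2.16, 0.104), likely doublets (1.10, 0.314) or cells with markers of both types (1.15, 0.694). That of *Rgs5* was lost without the last of these (0.80, 0.0900). In that fit 3 members and 158 of 11168 genes were called, and for 1 of the 3 the pericyte-like response was the lower. *Tagln* came to -0.38 ± 0.42 (0.742), and between 0.62 without KO S2 (0.0234) and -1.39 without KO S1 (2.44e-08). Between the stages in WT, 0 of 10 members and 1 of 11360 genes (0.0088%) passed. An unadjusted p under 0.05 (edgeR) was found for 486 of the 11360 genes. Among them were *Acta2* (1.73), *Myl9* (1.76), *Des* (1.07), *Rgs5* (1.32) and *Rgs4* (2.04). Members low in blood endothelial cells enter through their pericyte-like sums, so these are not read against that number.

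In perineurial-like cells, which are led by *Sfrp5*, *Krt19*, *Dcn* and *Cldn1* and ensheathe nerves, *Myl9* was at 179 and 199 CPM in WT telogen, 155 and 167 CPM in anagen and 139 and 193 CPM in the KO. Both anagen libraries lay under both telogen libraries, and the KO libraries spanned both groups. *Tagln* was at 80.0 and 93.7, 54.1 and 58.5, and 133 and 0 CPM, so that the KO libraries lay at both ends. By edgeR 0 of 3 members tested were called between the stages (0.922% of 11166 genes were), with *Tagln* at -0.55 ± 0.15 (adjusted p = 0.142) and *Myl9* at -0.15 (0.649). In the KO 0 of 2 were (21.6% of 10336 genes), with *Myl9* at -0.32 ± 0.21 (0.2997). The KO sums held few UMIs, 497020 against 8892162 in telogen, and the 10 fibroblast markers moved from 13587 to 14230 CPM in telogen to 8440 to 8872 CPM in the KO; their part was not tested.

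Related genes were taken from 5 lists. Of the contractile apparatus (27 genes), 25 were tested in pericyte-like cells and 1 rose in the KO, against 5.73% of all genes called in this fit. This was *Lmod1*, which starts actin filaments in smooth muscle, at 42.2 and 116 CPM in telogen and 642 and 347 CPM in the KO (2.58 ± 0.51, adjusted p = 0.0328, edgeR). *Lmod1* is among the leading genes of sub-cluster 1 (495 CPM, against 15.2 to 113 CPM in the others), which held 6 of 114 and 35 of 154 pericyte-like cells in telogen and 39 of 60 and 16 of 35 in the KO. The part of these shares in its change was not tested. Of the vessel tone receptors and channels (22 genes, 16 tested), 2 rose and 1 fell. *Ednra*, the endothelin A receptor, rose from 54.1 and 92.6 to 258 and 258 CPM (1.72 ± 0.32, 0.0270), and *Itpr1*, a calcium release channel, from 80.3 and 116 to 252 and 234 CPM (1.22 ± 0.28, 0.0478). *Avpr1a*, a vasopressin receptor, fell from 148 and 136 to 34.6 and 32.8 CPM (-2.15 ± 0.32, 0.0205). Of the regulators of contractile genes (10, 7 tested) and the other RGS genes (11, 6 tested) 0 were called, and the 2 other KATP subunits were tested nowhere. The medians of the 4 lists were 0.33, 0.50, -0.01 and -0.01 against 0.00 over all genes. Between the stages 0 genes of any list were called in pericyte-like, blood endothelial or perineurial-like cells.

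In blood endothelial cells of the KO, 4 genes of the contractile apparatus rose and 11 fell, of 22 tested, where 15.3% of all genes were higher and 18.1% lower. *Myl6*, a myosin light chain, fell from 1460.4 and 1584 to 546 and 561 CPM (-1.52, adjusted p = 6.98e-05, edgeR), *Cnn2*, a calponin, from 46.7 and 54.8 to 8.09 and 12.4 CPM (-2.37, 7.06e-05), and *Cald1*, caldesmon, from 309.9 and 415 to 105 and 119.8 CPM (-1.74, 7.93e-05). *Ppp1r14a*, an inhibitor of the phosphatase of myosin, fell by 1.73 on the log2 scale (0.000249). *Smtn*, smoothelin, rose from 34.6 and 34.8 to 72.6 and 87.0 CPM (1.14, 0.000363). Among 6 regulators *Mrtfb*, a coactivator of serum response factor, rose from 65.6 and 76.3 to 218 and 208 CPM (1.53, 6.61e-05), and *Zeb2* (-1.18) and *Mef2c* (-0.55) fell. *Rgs10* (-1.89) and *Rgs2* (-0.82) fell and *Rgs12* (0.64) rose among 6 other RGS genes, and *Itpr1* (0.74) rose and *Pde3a* (-1.39) fell among 8 genes of vessel tone. The list medians were -0.54, -0.12, -0.47 and -0.04 against 0.02 over all genes.

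In perineurial-like cells of the KO, where 21.6% of all genes were called, *Actn1* (1.95) and *Tpm1* (1.01) rose and *Tpm2* (-1.35) and *Myl6* (-1.11) fell among 18 genes of the contractile apparatus, *Mrtfb* rose (1.13) among 7 regulators, and *Rgs10* (1 UMI against 190, ratio 0.0942, 0.00237 to 0.531) fell among 6 other RGS genes. Of 11 genes of vessel tone, *Adra2a* fell (-1.89), as did *Cacna1h* (2 UMIs against 171, ratio 0.209, 0.0251 to 0.768) and *Cacna1c* (0 UMIs against 108, at least 2.01-fold lower with a floor of 3 UMIs over the group). *Rgs10*, *Cacna1h* and *Cacna1c* passed the low-count filter through their telogen sums, as the KO sums held only 497020 UMIs against 8892162. Their falls are thus not evidence about the lists.

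The genes whose levels over 38 sums of a library and cell type were most like the 6 contractile members were *Jph2* (Pearson r = 0.948), *Notch3* (0.930), *Ano1* (0.930), *Speg* (0.928) and *Cox4i2* (0.928). Those most like the 4 pericyte markers were *Higd1b* (0.974), *Tmem182* (0.973), *Cox4i2* (0.965), *Olfr558* (0.960) and *Mrvi1* (0.955). *Notch3*, *Higd1b* and *Cox4i2* had been used to name the pericyte-like cells, the 38 sums share libraries, and the values are descriptions.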

How the data were processed

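Per the labels and methods, tdTomato+ back-skin cells were sorted, Chromium 3′ v3 libraries were read on a NextSeq-500, and the authors counted UMIs with Cell Ranger 6.0.1 on mm10; the submitters' notes also name Seurat 4.0. The deposited values are raw counts per gene and barcode, with at least 500 UMIs per barcode, neither normalised nor pooled. Groups were taken from sample titles. The genotype field of the KO samples reads wild type, while their titles and descriptions give Alk1 KO.

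The members and lists were chosen with earlier results of these data known. Cells with 200 to 5000 genes and under 10% mitochondrial UMIs were kept. From 3000 variable genes, without 82 genes that are members or in the lists, 30 principal components were corrected with Harmony (theta 2, sigma 0.1), and Leiden clusters (20 neighbours, resolution 0.6) were named where at least 3 markers were 2-fold higher and in 25% of cells. Pericyte-like cells were regrouped (1000 genes, 10 components, resolution 0.3). Scrublet's automatic threshold marked 0.093% to 1.09% of cells; no doublets were removed except as an alternative, in which the highest 5% were removed where it marked under 0.5%. Shares were counted at 1500 UMIs per cell. Depth was 213252 to 1393044 UMIs per library in pericyte-like cells, so that 3 counts equal 2.15 to 14.1 CPM.

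UMIs were summed per library and cell type and tested with edgeR 4.0.16 (filterByExpr, TMM, quasi-likelihood) on the 4 libraries of each contrast, Benjamini-Hochberg adjusted over all genes; calls needed an adjusted p under 0.05 and over 1.3-fold. The study used 2 mice for each stage or genotype, so p-values measure the spread between the 2 libraries of a group. The deviations of libraries with equal replicate numbers correlated at -0.168 to 0.177, and the numbers were not taken as pairs. The named genes are the 10 members, up to 5 called genes of each list with the lowest adjusted p, the 5 genes most like each profile, and *Acvrl1*. Alternatives were DESeq2 1.42.0, RLE scaling, no low-count filter, all 6 libraries, a replicate block, each library left out, 5% mitochondrial UMIs, 500 genes, doublets removed, no correction between libraries, resolution 1.2 and cells without markers of both types. The edgeR fit between groups was tried on simulated counts for each tested cell type and contrast. The interaction tests, the fits within clusters and DESeq2 were not. Python 3.11.15, scanpy 1.11.5, leidenalg 0.10.2, scipy 1.17.1 and R 4.3.3 were used.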

Additional observations from a re-analysis of the deposited data

Results flagged for a closer look

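The response to the KO differed between pericyte-like and blood endothelial cells for 4 of 10 members by the interaction test of edgeR. Of all 11753 genes, 363 (3.09%) passed it. Some members entered only through their pericyte-like sums, so the count is not read against that share. The difference was 3.65 ± 0.35 for *Acta2* (log2 ± SE, adjusted p = 4.09e-06), 3.15 ± 0.36 for *Myl9* (2.45e-05), 1.63 ± 0.24 for *Rgs5* (0.000396) and 2.45 ± 0.61 for *Myh11* (0.0318). In each case the endothelial level fell, or for *Myh11* was read from 8 against 16 UMIs and had not passed the low-count filter there, while no fall was called in pericyte-like cells. Endothelial *Acta2* came largely from few cells. In telogen, 7 of 640 and 7 of 671 cells held 63.7% and 66.3% of its UMIs. The call of *Myh11* was lost with DESeq2 and without likely doublets or cells with markers of both types. That of *Rgs5* was lost without cells with markers of both types. In that fit 3 members and 158 of 11168 genes were called, and for 1 of the 3 the pericyte-like response was the lower. For *Tagln*, the responses of 2 blood endothelial clusters differed, by 4.07 ± 0.45 between those led by *Gpihbp1* and by *Cytl1* (adjusted p = 7.08e-07, edgeR), a pair chosen after the values had been seen. No gene's groups were large enough for a search for outlying libraries.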

How the results depend on the processing

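Of 820 fold changes of members under alternatives, 747 kept their side of the threshold, 18 lost a call and 49 gained a call. Another 6 changed sign with a call in at least 1 of the fits. Of those 820, 76 were values of uncalled genes that changed sign. These 6 were *Tagln* in blood endothelial cells of the KO in the *Ly6c1* (-1.0) and *Cytl1* (-2.11) clusters, *Des* there with under 5% mitochondrial UMIs (1.07) and without likely doublets (0.40), the *Tagln* difference between cell types without KO replicate 2 (0.62, against -1.39 without KO replicate 1) and *Myl9* in pericyte-like cells without KO replicate 1 (-1.18). The clusters, the sub-clusters and the crossed pairing were chosen after seeing the data. The cause of these moves was not tested.

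Between stages, the number of members called in pericyte-like cells moved from 0 only without anagen S1, a fit with a lone anagen library. In the KO it was 1 with DESeq2, where 298 of 7965 genes were called, and 2 with no filter, where 1265 of 16831 were. It was 1 with under 5% mitochondrial UMIs (353 of 4945 genes) and 1 without doublets (865 of 7224). In sub-clusters 3 to 7 it was 1 (262 of 6001 genes), and it also moved without telogen S2, KO S1 or KO S2. In blood endothelial cells 1 member was called between stages by DESeq2, where 198 of 12809 genes were. The count also moved when anagen S1 or anagen S2 was left out. In the KO 2 members were tested and 2 called in the *Ly6c1* cluster, where 17.8% of all genes were called. In the *Cytl1* cluster 3 were tested and 3 called, where 18.5% of all genes were. In perineurial-like cells 1 was called between stages with no filter (688 of 18463 genes) and 1 with the replicate block (*Tagln*, 721 of 11166 genes). Between stages this count also moved without telogen S2 or anagen S2, and in the KO only without KO S1. For the difference of stage response, 4 members were called with no filter, where 38 of 21375 genes were. Without cells with markers of both types 3 were called, where 28 of 11085 genes were, and the count also moved without anagen S1. Members low in blood endothelial cells enter through their pericyte-like sums, so these counts are not read against those of all genes.

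Genes called between stages in pericyte-like cells were 4 with DESeq2, 107 with no filter, 1 with all 6 libraries, 4 each with 5% mitochondrial UMIs, 500 genes and no correction between libraries, and 4 to 294 with a library left out. In the KO, against 456, they were 298, 1265 with no filter, 865 without doublets and 191 to 1561. In blood endothelial cells they were 198 with DESeq2, 4 with RLE scaling, 31 with all 6 libraries, 10 with 5% mitochondrial UMIs and 3 to 1228 between stages, and 2270 with DESeq2 and 2327 to 4114 in the KO, against 3770. In perineurial-like cells they were 688 with no filter, 55 with all 6 libraries, 4 with 5% mitochondrial UMIs, 42 without doublets, 4 without mixed cells and 297 to 643 between stages, against 103, and 1343 without doublets and 932 to 2655 in the KO, against 2234.

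With the replicate block the genes called were 4 and 151 in pericyte-like cells for stage and KO, 3 between stages in blood endothelial cells and 721 between stages in perineurial-like cells. The equal numbers correlated at -0.168 for the pericyte-like KO fit, and crossing them gave 672 genes and 1 member. DESeq2 left 1699 genes without an adjusted p there.

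The pericyte-like sums are the limit on depth, with 35 to 154 cells per library and 0 to 110.1 CPM of *Cnn1*. Fits that leave out a library assume that the lone library of a group varies like the others. The pericyte-like share differed by -2.60 to -1.53 points between stages and by -1.65 to 0.0640 in the KO with a library left out.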
